A study of Rattus norvegicus with 4 samples.

Results

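The genes examined here were the ligands, receptors and intracellular mediators of axon guidance, taken as every row with an NCBI gene ID whose symbol belongs to the semaphorins of classes 3 to 7, the plexins, the neuropilins, the ephrins, the Eph receptors, the Slits, the Robo receptors, the netrins and netrin-Gs, the Unc5 receptors, Dcc, Neo1, or the collapsin response mediator proteins Crmp1, Dpysl2, Dpysl3 and Dpysl5. This selection uses symbols alone and found 66 genes among 17445 rows, of which 13984 have a gene ID. The RNA was from the hippocampus of Wistar rat pups on postnatal day 1. The dams received bisphenol A (BPA) into the stomach at 5000 µg per kg body weight, or vehicle, once a day from gestation day 1 until birth. The methods describe BPA dissolved in ethanol and diluted in corn oil. Male and female pups of each treatment gave 1 library each, so that no group has a replicate library. The libraries were pools of 3 hippocampi, and the study describes the pups of a sex and treatment as coming from independent litters, so that the spread between litters lies within a pool and was not measured.

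Growing axons carry receptors that read attractive and repulsive cues on their way to a target. Class 3 semaphorins are secreted and act through a complex of a neuropilin, which binds them, and a plexin, which passes the signal into the cell, while the membrane semaphorins bind plexins directly. Ephrins are ligands held on the cell surface that bind Eph receptor tyrosine kinases on a neighbouring cell, Slits repel axons through Robo receptors, and netrin-1 attracts axons through Dcc or repels them through Unc5 receptors. The CRMPs are cytosolic proteins that bind tubulin and relay semaphorin signals to the growth cone. In the hippocampus these families are known for guiding the mossy fibres, the entorhinal afferents and the commissural axons, which grow around birth.

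The deposited values are FPKM, that is, fragment numbers divided by the length of the gene and by the size of the library. They take gene length into account, so that levels of different genes can be set side by side. The steps of the low values give 8660000 to 8920000 fragments per library. All 12 listed markers of hippocampal excitatory neurons, out of 15 chosen, were above 1 FPKM, among them Neurod6 at 135, 138, 141 and 161 FPKM and Prox1, a marker of dentate granule cells, at 12.4, 10.2, 12.8 and 7.61 FPKM, where the male control library comes first, then the male BPA library, the female control library and the female BPA library. This order is kept below. Markers of tissue next to the hippocampus differed between the libraries. The summed level of 10 choroid plexus markers was 279, 722, 20.1 and 54.2 FPKM, of which Ttr alone was 256, 690, 3.96 and 42.4 FPKM. Over the 7 of them above a mean of 1 FPKM, the median log2 difference of BPA from vehicle was 0.63 in males and -0.12 in females. The summed level of 14 markers of the meninges and the vessel wall was 137, 121, 409 and 114 FPKM.

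In the comparison of both BPA libraries with both vehicle libraries, no axon guidance gene passed the test. Of the 66 genes, 63 are listed in all 4 libraries and 59 of these had a mean of at least 1 FPKM, which was the condition for the test. Limma, fitted to log2(FPKM + 1) of all 13542 rows, called 0 of the 59 genes at a Benjamini-Hochberg adjusted p under 0.05, where it called 0 of all rows (0%). At an unadjusted p under 0.05 limma gave 2 of the 59 genes, Ntng1 and Efnb2, or 3.39% against 4.7% of all rows. This number was 5 with sex as a covariate and 1 after quantile normalization. The share of all rows in these fits is not given here, so the 2 numbers have no background to be read against. With 2 libraries on each side, the smallest two-sided p that exact permutation allows is 0.333. In a bulk tissue, fewer cells of a type and less RNA per cell cannot be told apart.

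With all 4 libraries, counts of genes whose groups did not overlap stood near those of all genes. Both BPA libraries were above both vehicle libraries for 9 of the 59 genes, or 15.3%, against 13.3% of all rows with a gene ID and the same minimum. They were below both for 11 genes, or 18.6%, against 20.2%. The difference had the same sign in males and females for 36 of the 59 genes, or 61.0%, against 56.8%. Across the 59 genes, which share the same 4 libraries, the Pearson correlation of the male and the female difference was -0.01. The median difference of BPA from vehicle on the log2(FPKM + 1) scale was -0.01 over 58 genes in males, where the median over 10842 rows with a gene ID was -0.004, and -0.05 over 59 genes in females, where it was -0.04 over 10876 rows.

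Within a sex 1 library stands against 1, so the numbers describe these libraries. A difference of at least 0.5 on the log2 scale was taken as large. In males 1 gene, Efnb2, was higher by that much in BPA (1.35% of all rows with a gene ID), and 3 genes, Ntn1, Ntng1 and Efna5, were lower (2.11% of all rows). In females 1 gene, Ntn1, was higher (1.16% of all rows) and 2 genes, Efna1 and Unc5c, were lower (4.99% of all rows). No tested gene of the families was past a difference of 1 in either sex. After quantile normalization the female differences of Efna1 and Unc5c were -0.42 and -0.37, short of 0.5. Netrins, netrin-Gs and ephrins thus made up all of these genes but Unc5c, and each but Efnb2 had a mean under 5 FPKM.

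**Figure D1:**
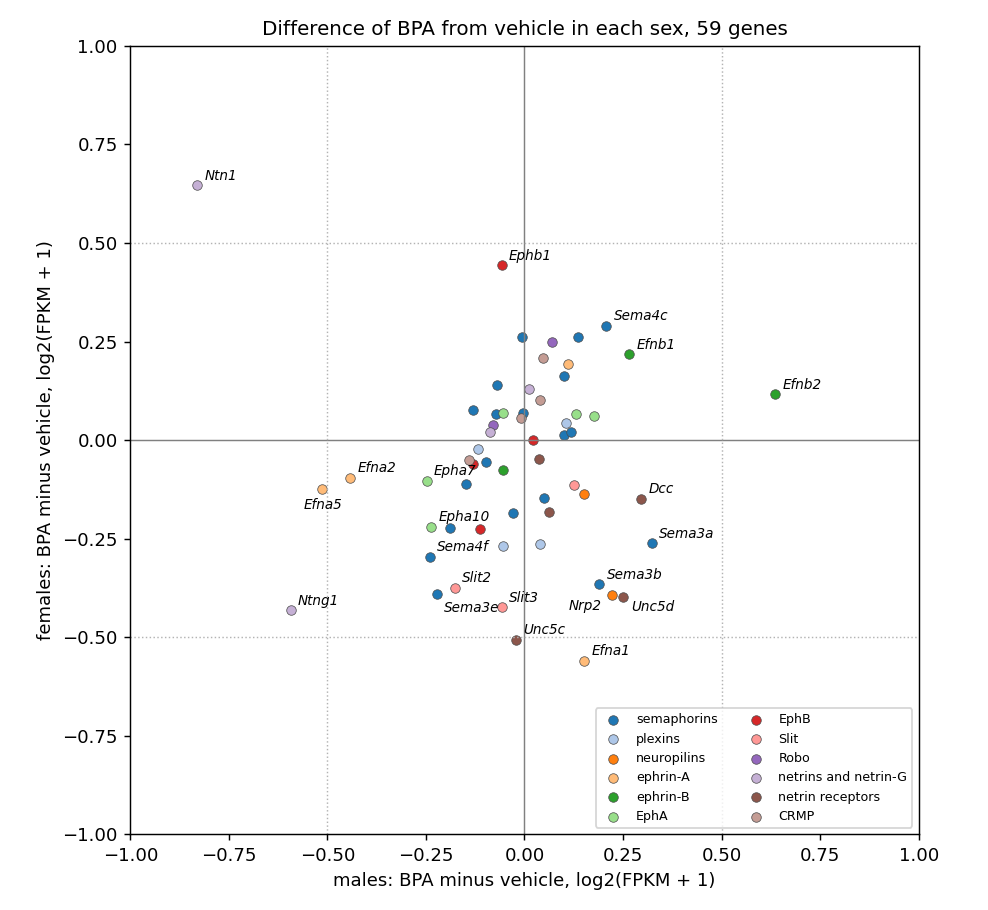
Difference of BPA from vehicle on the log2(FPKM + 1) scale in males (x axis) and in females (y axis), with 1 point for each of the 59 genes coloured by family and dotted lines at a difference of 0.5. Most genes lie near the centre, and Ntng1 lies apart in the same direction in both sexes. Efnb2 lies apart in males only, at 0.64 against 0.12 in females. Ntn1 lies at -0.83 in males and 0.65 in females.

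Netrin-1, encoded by Ntn1, was the ligand with the largest difference in each sex, and the directions were opposite. It was at 3.41, 1.48, 1.51 and 2.93 FPKM, so that male control and female BPA were the high libraries and male BPA and female control the low ones. The ratio of BPA to vehicle was 0.434 (95% interval 0.266 to 0.695) in males and 1.94 (95% interval 1.20 to 3.20) in females, where the interval is an exact one that covers the counting error of the fragments only. These levels stand for about 27 to 62 fragments per library. Combined over the sexes the log2 difference was -0.09 with a standard error of 0.35 (limma, adjusted p = 0.988). A test of the sex difference in the response is not possible with 1 library in each group.

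Netrin-G1, encoded by Ntng1, is a membrane-anchored relative of the netrins that binds the adhesion protein NGL-1 and not Dcc, and it is known for high levels in thalamic neurons. It was at 5.35, 3.21, 5.42 and 3.76 FPKM, with both BPA libraries below both vehicle libraries. The ratio of BPA to vehicle was 0.600 (95% interval 0.488 to 0.737) in males and 0.694 (95% interval 0.567 to 0.841) in females. The combined log2 difference of -0.51 had a standard error of 0.17 and an unadjusted p of 0.0199 (limma, adjusted p = 0.973). It was the lowest combined difference of the 59 genes. The list of markers of the thalamus or hypothalamus, of which 11 of 14 are listed and 6 are above a mean of 1 FPKM, summed to 70.8, 67.8, 78.1 and 62.8 FPKM. Of the 6, 2 were likewise lower in both BPA libraries, against 20.2% of all rows with a gene ID. These were Tcf7l2 and Calb2, which is also a marker of Cajal-Retzius cells. Lhx9, Lef1 and Slc17a6 were higher in BPA in males, by 0.15, 0.13 and 0.01, and Nkx2-1 in females, by 0.12. The thalamic markers Gbx2 and Rora are not listed. Tcf7l2, a transcription factor of thalamic neurons, was at 1.48, 1.33, 1.65 and 1.16 FPKM. The part of these cells in the level of Ntng1 was not tested.

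The remaining netrin genes gave smaller differences. Netrin-G2 (Ntng2), which binds NGL-2, was the most abundant of the group at 39.2, 39.5, 27.0 and 29.6 FPKM, with both female libraries below both male libraries. Netrin-4 (Ntn4), a netrin of basement membranes, was at 4.50, 4.18, 3.69 and 3.76 FPKM, with log2 differences of -0.09 in males and 0.02 in females. Ntn3 and Ntn5 are listed for males only, at 0.43 FPKM or less.

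The promoter of Ntng1 is shown because this was the gene with the lowest combined difference, together with that of Efnb2, the gene with the highest. Each sequence is the 250 bases before the start of the gene in RefSeq for the assembly GRCr8, and capitals mark the core GGTCA of the estrogen response element, searched on both strands, where TGACC is the same core on the other strand. BPA is known as a weak ligand of the estrogen receptors. The Ntng1 window lies at chr2:200515032-200515281 on the minus strand and the Efnb2 window at chr16:87484965-87485214 on the plus strand.
Ntng1: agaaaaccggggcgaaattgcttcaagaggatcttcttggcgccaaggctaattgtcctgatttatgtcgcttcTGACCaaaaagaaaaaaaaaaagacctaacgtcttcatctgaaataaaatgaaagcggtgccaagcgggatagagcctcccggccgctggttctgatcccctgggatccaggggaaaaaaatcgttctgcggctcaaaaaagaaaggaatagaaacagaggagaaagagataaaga
Efnb2: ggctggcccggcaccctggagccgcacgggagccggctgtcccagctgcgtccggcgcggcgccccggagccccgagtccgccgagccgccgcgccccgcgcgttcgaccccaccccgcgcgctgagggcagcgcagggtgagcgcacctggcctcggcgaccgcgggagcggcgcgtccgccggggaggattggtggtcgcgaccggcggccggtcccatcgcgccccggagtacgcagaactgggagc

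The Ntng1 window is 44.8% G and C and holds 1 core, which ends 172 bases before the start. The Efnb2 window is 80.4% G and C and holds none. Of the 66 genes, 51 were found in the promoter table, and 15 of these windows, or 29.4%, hold the core, against 35.2% of 27457 windows of the same length. The whole palindromic estrogen response element, a pair of facing cores with 3 bases between them, was in 0 of the 51 windows and in 0.0219% of all. A match is a string of letters and does not show binding, and the position of the start used in these cells was not measured.

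Among the ephrins, the ligands of the B class were higher in BPA in both sexes for 2 of 3 genes. Ephrin-B2 (Efnb2), which also marks arteries, was at 22.9, 36.0, 29.6 and 32.2 FPKM, with the male control library lowest and both BPA libraries above both vehicle libraries. The ratio was 1.58 (95% interval 1.33 to 1.88) in males and 1.09 (95% interval 0.921 to 1.28) in females, and the combined log2 difference of 0.38 had a standard error of 0.15 and an unadjusted p of 0.0403 (limma, adjusted p = 0.973). It was 0.20 without the male control library. Ephrin-B1 (Efnb1) was at 16.2, 19.7, 16.9 and 19.9 FPKM, a ratio of 1.21 (95% interval 1.07 to 1.38) in males and 1.17 (95% interval 1.04 to 1.33) in females (limma, adjusted p = 0.973). The 8 endothelial markers listed had median log2 differences of -0.03 in males and -0.39 in females.

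Ephrin-B3 (Efnb3), known as a repellent at the midline of the cord, was by far the most abundant ephrin. It was at 121, 117, 114 and 108 FPKM, and the mean of 115 ± 5.55 FPKM (SD, n = 4 libraries) exceeded that of every other ligand of the families. The log2 difference was -0.06 in males and -0.08 in females.

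The A class ephrins with a gene ID were low and their differences rest on few fragments. Ephrin-A3 (Efna3) is listed without a gene ID, as a new gene model named by its best protein match, at 28.1, 24.7, 22.1 and 23.4 FPKM. Ephrin-A4 (Efna4) was at 12.4, 13.4, 10.2 and 11.9 FPKM and ephrin-A2 (Efna2) at 13.1, 9.39, 8.06 and 7.48 FPKM. For Efna2 the male control library was the highest and the male ratio was 0.716 (95% interval 0.542 to 0.943). Ephrin-A5 (Efna5), a repellent that shapes topographic maps, was at 4.84, 3.09, 5.05 and 4.55 FPKM, below both vehicle libraries in both BPA libraries. Its gene model is 768 bases, so that these values stand for 19 to 31 fragments and the male ratio of 0.638 (95% interval 0.340 to 1.17) includes 1. Ephrin-A1 (Efna1) was at 2.70, 3.11, 3.32 and 1.93 FPKM, and the female ratio was 0.581 (95% interval 0.335 to 0.981).

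Among the Eph receptors of the A class, 2 were higher and 1 was lower in both BPA libraries than in both vehicle libraries. Epha4, which binds ephrins of both classes and has a known role at hippocampal spines, was the most abundant at 67.7, 74.2, 69.6 and 72.9 FPKM, and both BPA libraries lay above both vehicle libraries, with a combined log2 difference of 0.10 and a standard error of 0.09 (limma, adjusted p = 0.973). Epha5 was at 49.2, 47.4, 50.1 and 52.5 FPKM, Epha7 at 15.9, 13.3, 15.8 and 14.6 FPKM and Epha3 at 10.9, 12.5, 12.2 and 12.7 FPKM. Epha7 was lower and Epha3 higher in both BPA libraries, by log2 differences of -0.25 and 0.18 in males and -0.10 and 0.06 in females. Epha10, a member without kinase activity, was at 2.50, 1.97, 1.83 and 1.43 FPKM and was lower in BPA within each sex. Epha2 was between 0.35 and 0.91 FPKM, and Epha1 is listed for males only, at 0.04 FPKM.

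In the B class, Ephb2, a partner of NMDA receptors at synapses, was at 52.0, 52.8, 43.2 and 43.3 FPKM with a ratio of 1.01 (95% interval 0.941 to 1.10) in males and 1.00 (95% interval 0.919 to 1.09) in females. Ephb1 was at 28.2, 27.0, 22.7 and 31.3 FPKM. The female BPA library was the highest and the female control library the lowest, with a ratio of 1.38 (95% interval 1.26 to 1.50) in females and 0.960 (95% interval 0.883 to 1.04) in males. The kinase-dead receptor Ephb6 was at 21.0, 19.1, 18.8 and 18.0 FPKM and Ephb3 at 6.22, 5.68, 5.06 and 4.18 FPKM. Both were lower in BPA within each sex, but the groups overlapped.

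**Figure D2:**
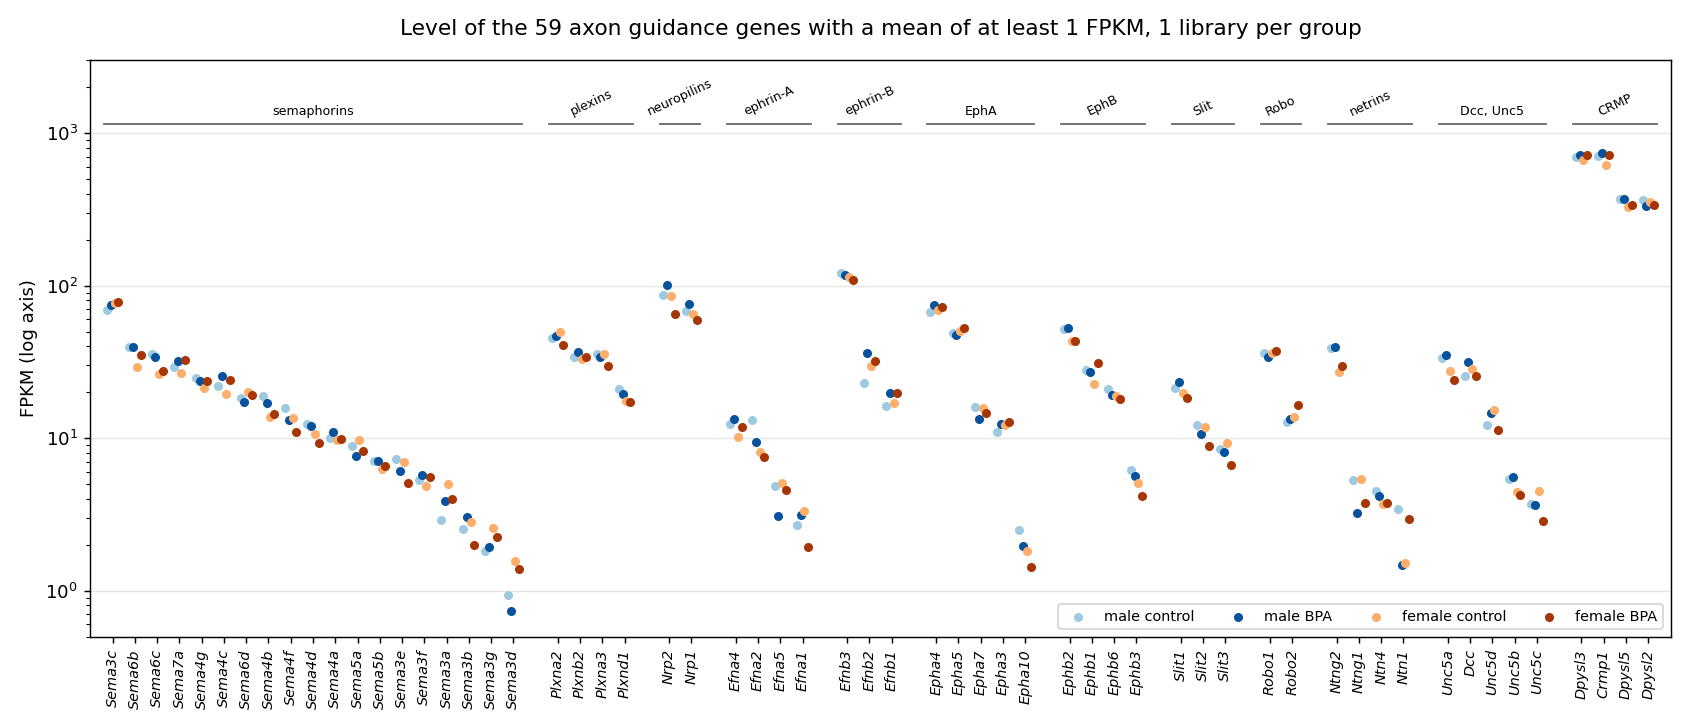
FPKM of each of the 59 genes in the 4 libraries on a log axis, grouped by family and sorted by mean, with 1 point per library. The CRMPs lie between 327 and 736 FPKM, Efnb3 is the highest of the other genes, and within most genes the 4 points lie close together.

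The semaphorins were the largest family, with 19 genes that all passed a mean of 1 FPKM. Their medians were 11.1 FPKM for the mean level and -0.01 and 0.01 for the log2 difference in males and females. Sema3c, a secreted semaphorin that can attract cortical axons, was by far the most abundant at 69.1, 74.2, 77.1 and 77.7 FPKM. The next were the membrane semaphorins Sema6b, a partner of plexin-A4 in mossy fibre guidance, at 39.8, 39.6, 29.2 and 35.2 FPKM, Sema6c at 35.7, 33.9, 26.4 and 27.6 FPKM and Sema7a, which is anchored by a lipid and binds integrins, at 29.1, 32.1, 26.8 and 32.3 FPKM. Sema3a, first known as collapsin for its collapse of growth cones, was low at 2.90, 3.88, 4.98 and 3.99 FPKM.

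In 3 semaphorins both BPA libraries lay above both vehicle libraries. Sema4c was at 22.0, 25.6, 19.4 and 24.0 FPKM, with ratios of 1.16 (95% interval 1.06 to 1.28) in males and 1.23 (95% interval 1.12 to 1.37) in females. Sema7a had ratios of 1.10 (95% interval 0.991 to 1.23) and 1.21 (95% interval 1.08 to 1.35), and Sema3f, a repellent of hippocampal axons that acts through neuropilin-2, was at 5.28, 5.73, 4.85 and 5.55 FPKM. Their combined log2 differences were 0.25, 0.20 and 0.13, and none passed the test (limma, adjusted p = 0.973 for each). Without the female control library the difference was 0.16 for Sema4c and 0.08 for Sema3f.

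In another 3 semaphorins both BPA libraries lay below. Sema4f was at 15.8, 13.2, 13.6 and 10.9 FPKM, with ratios of 0.837 (95% interval 0.737 to 0.949) in males and 0.801 (95% interval 0.698 to 0.921) in females. Sema3e, the ligand of plexin-D1, was at 7.27, 6.09, 7.01 and 5.11 FPKM, with ratios of 0.838 (95% interval 0.704 to 1.00) and 0.729 (95% interval 0.605 to 0.881). Sema5a, a semaphorin with thrombospondin repeats, was at 8.87, 7.66, 9.77 and 8.23 FPKM. The combined log2 differences were -0.27, -0.31 and -0.21 (limma, adjusted p = 0.973 for each). Without the female BPA library the difference was -0.14 for Sema4f and -0.20 for Sema3e, and without the male control library it was -0.17 for Sema4f. Plexin-D1 itself was at 21.1, 19.4, 17.6 and 17.3 FPKM, with the groups overlapping.

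Sema3a differed with opposite signs in the sexes, with a ratio of 1.34 (95% interval 1.09 to 1.64) in males and 0.801 (95% interval 0.672 to 0.956) in females. The male control library was the lowest and the female control library the highest, and the 2 BPA libraries lay between them. The remaining 12 semaphorins had differences from -0.15 to 0.19 in males and from -0.37 to 0.26 in females.

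The receptors of the semaphorins were among the abundant genes. Neuropilin-2 (Nrp2), the co-receptor for Sema3f, was at 86.3, 101, 85.8 and 65.1 FPKM and neuropilin-1 (Nrp1), the co-receptor for Sema3a, at 67.9, 75.5, 65.5 and 59.5 FPKM. Both were higher in BPA in males and lower in females. For Nrp2 the ratio was 1.17 (95% interval 1.11 to 1.23) in males and 0.758 (95% interval 0.714 to 0.806) in females, and for Nrp1 it was 1.11 (95% interval 1.06 to 1.16) and 0.909 (95% interval 0.866 to 0.954). The male BPA library was the highest and the female BPA library the lowest for both genes. The combined log2 differences were -0.09 with a standard error of 0.19 and 0.01 with 0.13 (limma, adjusted p = 0.988 and 0.997), and the difference between the sexes in this response was not tested. Neuropilins are also expressed by endothelial cells, and the endothelial list summed to 104, 99.7, 120.0 and 97.5 FPKM.

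Of the plexins, Plxna2, a receptor for class 6 semaphorins, was at 45.4, 46.7, 49.4 and 41.0 FPKM, Plxnb2 at 34.0, 36.7, 33.0 and 34.0 FPKM and Plxna3, the partner of Nrp2, at 35.5, 34.2, 35.9 and 29.6 FPKM. Plxna2 and Plxna3 were lowest in the female BPA library, with female ratios of 0.829 (95% interval 0.793 to 0.867) and 0.825 (95% interval 0.776 to 0.877), and for Plxna3 both BPA libraries were below both vehicle libraries. Plxnb3 was at most 0.27 FPKM. The genes Plxna1, Plxna4, Plxnb1 and Plxnc1 are listed without a gene ID, as new gene models named by their best protein match, and are therefore outside the 66. Summed over its models, Plxna1 was at 64.0, 58.7, 58.1 and 46.0 FPKM with BPA lower than vehicle within each sex, and Plxnc1 was at 42.9, 36.5, 43.3 and 34.0 FPKM, with both BPA libraries below both vehicle libraries. The models summed for Plxnc1 differed. A model at 19.21, 11.85, 18.98 and 13.04 FPKM showed this pattern. In the models at 4.62, 9.80, 11.83 and 10.73 FPKM and at 19.03, 14.89, 12.48 and 10.28 FPKM the groups overlapped, and the former was higher in male BPA than in male control. Plxna4 was at 15.8, 17.4, 16.4 and 18.4 FPKM, with both BPA libraries above both vehicle libraries, and Plxnb1 was at 15.8, 16.4, 14.1 and 12.3 FPKM, with the groups overlapping.

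**Figure D3:**
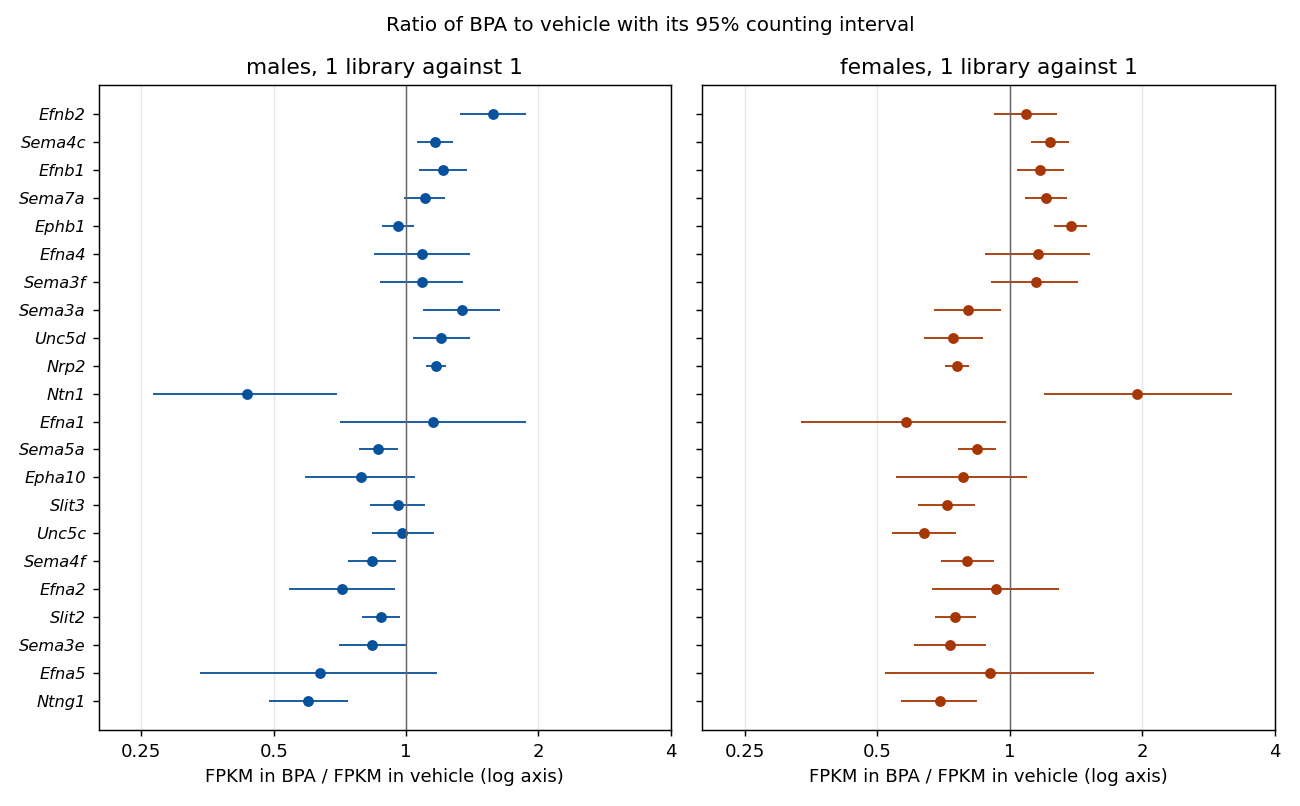
Ratio of FPKM in BPA to that in vehicle on a log axis, for males (left) and females (right), for the genes named for their difference with BPA and sorted by the combined log2 difference. Points are the ratio of 1 library to 1 and lines its 95% interval for counting error. Ntng1, Slit2, Sema4f and Sema5a lie below 1 in both sexes with intervals that leave out 1, Efnb1 and Sema4c lie above it in both, and Ntn1, Sema3a, Unc5d and Nrp2 lie on opposite sides.

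The Slits, which repel axons, were lower in the female BPA library than in the female control library for all 3 genes. So were 6221 of 10876 rows with a gene ID. Slit1 was at 21.2, 23.2, 19.8 and 18.2 FPKM, Slit2 at 12.2, 10.7, 11.9 and 8.92 FPKM and Slit3 at 8.48, 8.11, 9.30 and 6.68 FPKM. In females the ratio was 0.920 (95% interval 0.846 to 1.00) for Slit1, 0.752 (95% interval 0.676 to 0.836) for Slit2 and 0.718 (95% interval 0.617 to 0.835) for Slit3. In males it was 0.875 (95% interval 0.793 to 0.968) for Slit2 and 0.956 (95% interval 0.827 to 1.11) for Slit3, so that for these 2 genes both BPA libraries lay below both vehicle libraries. The combined log2 difference was -0.28 for Slit2, with a standard error of 0.14, and -0.24 for Slit3, with 0.15 (limma, adjusted p = 0.973 for both). For Slit2 it was -0.16 without the female BPA library and -0.39 without the male BPA library. Markers of radial glia and astrocytes were also lower in both BPA libraries for 7 of 10 genes, with median log2 differences of -0.14 in males and -0.23 in females. The same held for 5 of 8 markers of cycling cells. The part of these cells in the genes lower in both BPA libraries was not tested.

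Markers of the meninges and the vessel wall stood apart in the female control library, with sums of 137, 121, 409 and 114 FPKM. The female BPA library lay near both male libraries. Of 13 of these 14 markers above a mean of 1 FPKM, 0 were higher in the female BPA library than in the female control library and 4 were higher in the male BPA library than in the male control library. Their median log2 difference was -1.17 in females and -0.19 in males, and none is at the lowest listed value in all libraries. Slit3, Unc5c and Efna1 were likewise highest in the female control library. Slit2 and Nrp2 were not higher there than in the male control library, at 11.9 against 12.2 FPKM and 85.8 against 86.3 FPKM. The part of these cells in the differences of the 5 genes between the female libraries was not tested.

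Of the Slit receptors, Robo1 was at 36.0, 34.0, 36.0 and 37.0 FPKM and Robo2 at 12.7, 13.4, 13.7 and 16.5 FPKM, with the female BPA library highest for both and ratios of 1.03 (95% interval 0.972 to 1.09) and 1.20 (95% interval 1.11 to 1.31) in females. Robo3 was at most 0.14 FPKM. Robo4, an endothelial receptor, was at 0.92, 0.02, 0.65 and 0.98 FPKM, and the value of 0.02 FPKM in male BPA is uncertain because a second row, LOC100911068, has the gene ID that RefSeq names Robo4, so that reads may be divided between them. That row was at 0.91, 1.02, 1.38 and 0.58 FPKM and the sum of both at 1.83, 1.04, 2.03 and 1.56 FPKM.

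Of the netrin receptors, Unc5a was at 33.4, 34.9, 27.5 and 24.1 FPKM, Dcc, the receptor for attraction, at 25.6, 31.7, 28.2 and 25.4 FPKM, and Unc5d at 12.2, 14.7, 15.3 and 11.4 FPKM. Unc5b was at 5.40, 5.57, 4.41 and 4.23 FPKM and Unc5c, a receptor for repulsion, at 3.69, 3.62, 4.51 and 2.88 FPKM. In females all 5 genes were lower in BPA, as were 6221 of 10876 rows with a gene ID. In males 4 of 5 were higher, as were 5268 of 10842 rows. The log2 differences of Unc5b were small, at 0.04 in males and -0.05 in females. The ratio for Dcc was 1.24 (95% interval 1.14 to 1.34) in males and 0.899 (95% interval 0.827 to 0.977) in females, and for Unc5d it was 1.20 (95% interval 1.04 to 1.40) and 0.744 (95% interval 0.639 to 0.867). For Unc5c it was 0.981 (95% interval 0.835 to 1.16) and 0.639 (95% interval 0.539 to 0.754). The combined log2 differences of the 5 genes were between -0.26 and 0.07, none passed the test, and the difference between the sexes in the response was not tested. Neogenin (Neo1), the relative of Dcc, lacks a gene ID in these files, and the 2 gene models matched to its protein summed to 79.4, 90.8, 85.5 and 89.2 FPKM. From female control to female BPA these models went opposite ways, from 27.63 to 22.84 FPKM and from 57.85 to 66.34 FPKM.

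The CRMPs were the most abundant genes of the whole set by a wide margin. Dpysl3 (CRMP4) had a mean of 699 ± 22.7 FPKM (SD, n = 4 libraries), at rank 44 among 13171 rows with a gene ID, and Crmp1 of 695 ± 52.0 FPKM, at rank 45, so that these 2 do not differ beyond their spread. Dpysl5 (CRMP5), at 351 ± 21.3 FPKM, and Dpysl2 (CRMP2), at 347 ± 14.9 FPKM, ranked 145 and 149 and likewise do not differ beyond their spread. In the individual libraries Dpysl3 was at 696, 715, 668 and 716 FPKM, Crmp1 at 711, 736, 619 and 715 FPKM, Dpysl5 at 370.2, 368, 327 and 340.0 FPKM and Dpysl2 at 366, 332, 352 and 339.6 FPKM.

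At this level the counting intervals of the CRMPs are narrow, and the ratios of BPA to vehicle were between 0.907 and 1.15. For Crmp1 the ratio was 1.03 (95% interval 1.01 to 1.06) in males and 1.15 (95% interval 1.13 to 1.18) in females, and for Dpysl2, the mediator that links Sema3a signals to microtubules, it was 0.907 (95% interval 0.886 to 0.929) and 0.965 (95% interval 0.942 to 0.989). Dpysl3 and Crmp1 were higher and Dpysl2 was lower in both BPA libraries. The combined log2 differences were 0.07, 0.13 and -0.10, with standard errors of 0.10, 0.11 and 0.09, and none passed the test (limma, adjusted p = 0.980, 0.973 and 0.973).

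The comparison of both female with both male libraries called no axon guidance gene. Both female libraries were below both male libraries for 23 of the 59 genes, or 39.0%, against 23.7% of all rows with a gene ID. They were above both for 8 genes, or 13.6%, against 19.7%. The median difference of the female from the male libraries on the log2 scale was -0.09 over the 59 genes and -0.01 over the 10857 rows with a gene ID. Limma called 0 of the 59 at an adjusted p under 0.05, where it called 0.00738% of all rows. At an unadjusted p under 0.05 it gave 7 of the 59, or 11.9%, against 10.6% of all rows, and this number was 3 without the male control library. All 7 were lower in females.

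These 7 genes were Ntng2, Sema6c, Unc5a, Ephb2, Sema4b, Sema6b and Efna2, of which Sema4b was chosen after its values were seen. Ntng2 had the smallest p, with a log2 difference of -0.46 and a standard error of 0.09 (limma, unadjusted p = 0.00143, adjusted p = 0.210). For Unc5a the difference was -0.39 with a standard error of 0.10 and for Efna2 -0.47 with 0.17 (limma, adjusted p = 0.292 and 0.423). The difference of Efna2 was -0.25 without the male control library and -0.69 without the male BPA library. Sema4b, a membrane semaphorin found at synapses, was at 18.8, 17.1, 13.7 and 14.4 FPKM.

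Among the 8 genes above, Sema3d, a secreted semaphorin, had the largest difference. It was at 0.93, 0.74, 1.57 and 1.38 FPKM, a log2 difference of 0.43 with a standard error of 0.25 (limma, adjusted p = 0.588), at a level of about 29 to 59 fragments per library. Robo1 and Robo2 were also above in both female libraries, as were Sema3a and Sema3g. The summed choroid plexus markers given above were also lower in both female libraries. The summed meningeal markers did not separate by sex, at 409 FPKM in female control and 114 FPKM in female BPA, against 137 and 121 FPKM in males. The part of either tissue in these differences was not tested. With 1 pool for each sex and treatment, sex cannot be told apart from other differences between the pools.

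**Figure D4:**
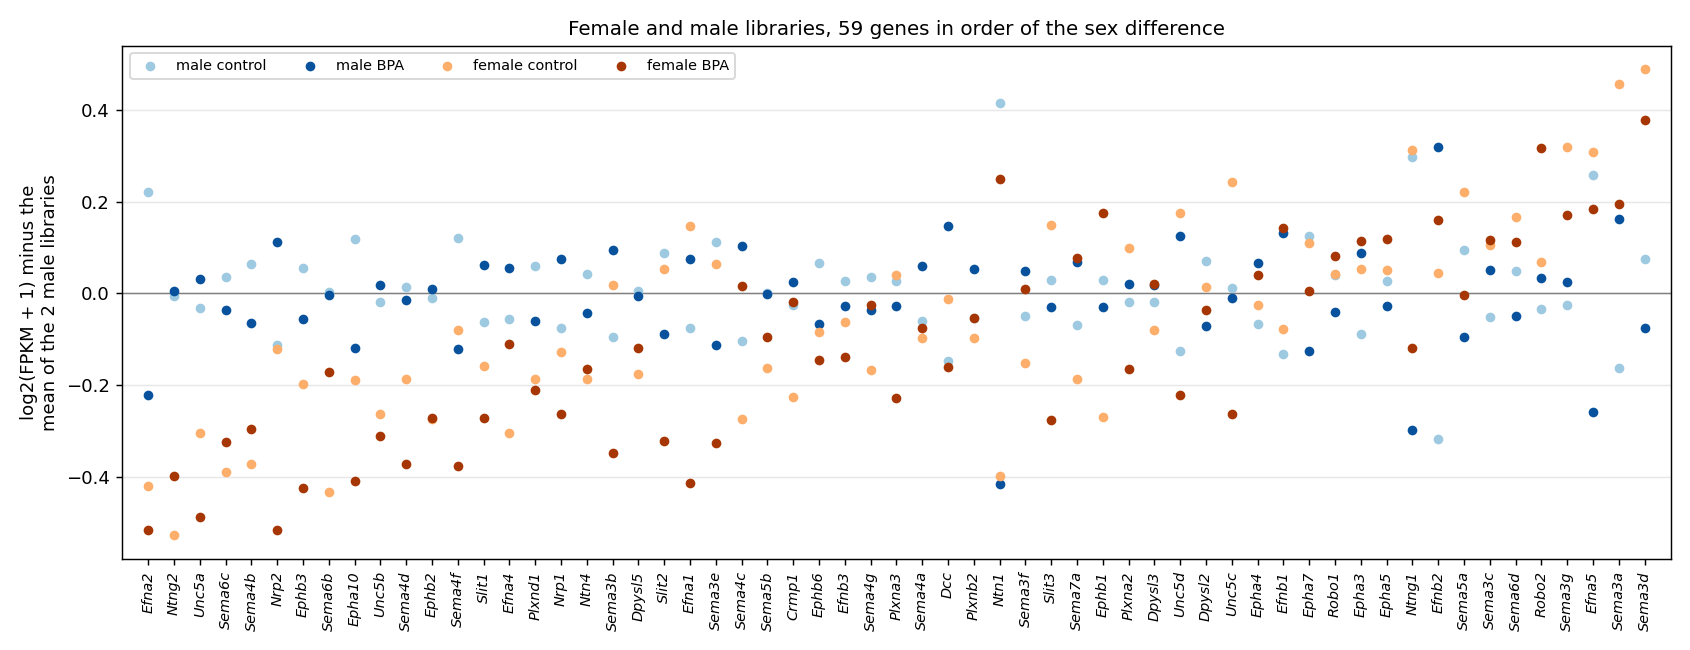
log2(FPKM + 1) of each library minus the mean of both male libraries, for the 59 genes in order of the female minus male difference, with 1 point per library. At the left the female points lie below both male points, for Efna2, Ntng2 and Unc5a, and at the right Sema3d and Sema3a lie above.

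The partners and effectors of these pathways outside the families gave no call either. Of 23 co-receptors and adhesion partners 20 were tested, and limma called 0 at an adjusted p under 0.05 and 1 at an unadjusted p under 0.05. That gene was Ryk, a receptor for Wnt cues, at 16.9, 20.1, 17.3 and 21.9 FPKM. The largest log2 differences in males were those of Met at -0.30, Ryk at 0.24 and Cntn2 at 0.18. In females they were those of Cxcl12 at -0.49, Cntn4 at -0.35 and Ryk at 0.33. Cxcl12, a chemokine of the meninges that guides Cajal-Retzius cells, was at 16.6, 18.4, 28.2 and 19.8 FPKM, highest in the female control library.

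Of 50 signal transduction genes 45 were tested, with 0 called by limma at an adjusted p under 0.05 and 0 at an unadjusted p under 0.05. Their median log2 difference was -0.02 in males and -0.05 in females. In males the largest differences were those of the adaptor Nck1 at 0.33, the exchange factor Vav3 at 0.32 and the Rac-inactivating protein Chn2 at 0.29. In females they were those of the cytoskeletal kinase Rock1 at -0.56, the Rac activator Dock1 at -0.45 and Mical1, an oxidase that disassembles actin, at -0.38. Rock1 was at 12.1, 13.3, 20.0 and 13.2 FPKM and was the only gene of these lists past a difference of 0.5 in either sex.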

How the data were processed

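RNA-seq of 4 libraries of rat hippocampus gave, per the labels, 1 library for each sex and treatment. The deposited values are FPKM per gene computed by the authors, and the submitters' processing notes name HISAT 0.1.6, Bowtie2 2.2.5, RSEM and the genome build rn6 without their settings. FPKM values are not counts, so log2(FPKM + 1) was tested with limma 3.58.1 in R 4.3.3 (moderated by a mean trend) on all 13542 rows that had a value in all 4 libraries and a mean of at least 1 FPKM, with p-values adjusted after Benjamini and Hochberg. The main fit set 2 BPA against 2 vehicle libraries, or 2 female against 2 male libraries. Within a sex, 1 library was set against 1 with no test. The script was tested on simulated data.

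Library depth was estimated from the steps of low FPKM values, of which 94.7% to 99.1% lay within 0.15 of a whole fragment. The ratio intervals are exact binomial intervals at 95% on the rounded fragments and cover counting error only. Each group is 1 pool of pups from independent litters, so p-values measure the spread between pools of both sexes.

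The genes and lists were chosen with earlier results of these data known. Values are given for the 3 most abundant genes of each family, the 6 largest differences in the same direction in both sexes for each direction, the 6 largest in each sex, the 4 largest opposite ones and the 4 largest between the sexes. From the pathway lists the 3 largest per sex are given. Other genes named were chosen after their values were seen. Of the 66 symbols, 65 matched RefSeq (GRCr8) by gene ID. That assembly is not rn6, and its coordinates are given for the promoter sequences alone. Other scalings, filters, pseudocounts and covariates were tried, and each library was left out in turn.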

Additional observations from a re-analysis of the deposited data

Results flagged for a closer look

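For 2 of the 59 genes with a mean of at least 1 FPKM the difference of BPA from vehicle had opposite signs in the sexes at a size of at least 0.25 on the log2(FPKM + 1) scale. Ntn1 was at -0.83 in males and 0.65 in females. Sema3a was at 0.32 in males and -0.26 in females. Epha2, at 0.50 and -0.34, and Robo4, at -0.91 and 0.26, also reached this size but had a mean under 1 FPKM. The difference between the sexes was not tested, since each group has 1 library.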

How the results depend on the processing

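Of the axon guidance genes, 0 were called by limma under each fit run, for BPA and for sex, and at an unadjusted p under 0.05 there were 2 for BPA (5 with sex as a covariate, 1 after quantile normalization, 0 to 2 when each library was left out) and 7 for sex (3 to 9 when each library was left out, 3 without male control). Over all rows, BPA against vehicle gave 0 calls, 2 with sex as a covariate, 0 to 3 when each library was left out (1 without male BPA and 3 without female control) and 637 at an unadjusted p under 0.05. Female against male gave 1 call, 21 with a mean of at least 5 FPKM, 27 with new gene models summed by protein name, 55 with treatment as a covariate, 1 to 2 when each library was left out and 1442 at an unadjusted p under 0.05. The count of axon guidance genes past 0.5 in males was 4, and it was 7 with no filter, 1 with a mean of at least 5 FPKM and 0 past a difference of 1. In females it was 3, and it was 1 after quantile normalization, 0 with a mean of at least 5 FPKM and 0 past a difference of 1. Leaving out 1 library was also used, after seeing the data, as a check on the counts of groups that do not overlap. It gave 30 to 34 of 59 genes lower in females, or 50.8% to 57.6%, against 34.6% to 43.6% of rows with a gene ID. Quantile normalization gave 21, or 35.6%, against 22.0%. For BPA, leaving out 1 library gave 13 to 22 genes above, or 22.0% to 37.3%, against 27.5% to 30.1%. It gave 16 to 28 genes below, or 27.1% to 47.5%, against 33.5% to 40.7%. The combined difference of Ntng1 was between -0.60 and -0.42 that of Efnb2 between 0.20 and 0.56, that of Sema4f between -0.40 and -0.14, that of Sema3e between -0.41 and -0.20 and that of Slit2 between -0.39 and -0.16 when each library was left out, where a lone library is assumed to vary like the others. The causes of these changes were not tested. No paired analysis was possible because the labels give no replicate numbers, but the fit with sex as a covariate compares BPA with vehicle within each sex and leaves 1 residual degree of freedom. At 8660000 to 8920000 fragments per library, short genes under 5 FPKM rest on few fragments, such as Efna5 on 19 to 31. Long genes under 5 FPKM rest on more, such as Unc5c on 235 to 362.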
